A study of Mus musculus with 36 samples.

Results

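The lungs of mice that received crude oil together with the dispersant Corexit 9527 (9527+oil) were compared with the lungs of mice that received oil alone. The comparison holds the 12 of the 36 mice of the series whose labels carry either treatment, 6 in each group and 3 of each sex within a group. All were wild-type C57BL/6 mice, 8 weeks old at the first treatment, and no allele or transgene was introduced. According to the methods, mice aspirated a saline-accommodated fraction placed in the throat, and the design text of the series instead names intratracheal instillation. Both groups received a 0.1 dilution of the fraction on days 0, 7 and 13, and the left lung was taken on day 14. The oil was from the Macondo (MC252) well. The oil group received only the saline phase left after the oil had separated, whereas the 9527+oil mixture did not separate and was given whole, so the groups differed in the phase that was given as well as in the dispersant. Female and male mice were deposited in separate tables, so that sex and table cannot be told apart.

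Crude oil carries polycyclic aromatic hydrocarbons, some of which bind the aryl hydrocarbon receptor, a transcription factor that switches on enzymes of xenobiotic metabolism such as Cyp1a1. Dispersants such as Corexit 9527 are mixtures of surfactants and solvents that break oil into small droplets. In the lung, inhaled material meets alveolar macrophages, which clear particles and surfactant, and club cells of the airway, which are rich in cytochrome P450 enzymes. Whole lung tissue was sequenced, so fewer cells of a type and less RNA per cell cannot be told apart in any of the values that follow.

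The gene counts of a mouse summed to 17703655 at the lowest and 29685060 at the highest. Levels are given as CPM, the counts of a gene scaled to a common library size, in the order of the mouse numbers in the labels, which are 4, 5 and 6 for oil and 16, 17 and 18 for 9527+oil in each sex. These numbers name the mice and do not pair them. Female oil mouse 6 stood apart. Mitochondrially encoded genes took 22.6% of its counts against 5.40% to 9.39% in the other 11 mice, its ratio of GC-rich to GC-poor genes was -2.06 on the log2 scale against -0.77 to 0.29, and it had the highest levels of the fat cell genes Adipoq and Fabp4. The defining markers of club cells and alveolar macrophages were above 0 in every library.

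No gene passed an adjusted p under 0.05 between 9527+oil and oil. Of 15185 genes tested over both sexes with edgeR's quasi-likelihood test and sex as a covariate, 0 were called (0%), and 0 were called at an adjusted p under 0.10. The lowest adjusted p was 0.481. Before adjustment, 1378 genes had a p under 0.05 (9.07%), of which 553 were higher in 9527+oil mice (3.64%) and 825 lower (5.43%), and without female oil mouse 6 these were 697 and 705. With any 1 mouse left out they ran from 284 without female 9527+oil mouse 17 to 1283 without female oil mouse 5 and from 304 without female 9527+oil mouse 17 to 1290 without female oil mouse 5, and without mouse 16 of each sex they were 286 and 349. By direction alone, 48% of the genes tested were higher. DESeq2 called 8 genes over both sexes, 1 higher and 7 lower, and limma-voom with sample quality weights called 0. The values below are therefore levels and estimates, and not changes that passed the main test. Female and male mice were treated separately, and whether the mice of a group shared a cage or a processing day is not given in the sources used here.

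A second description does not use the p-values. In 117 genes (0.77%) every 9527+oil mouse was above every oil mouse of its own sex, and in 93 genes (0.612%) every one was below, 210 genes in all (1.38%). In a further 88 genes (0.58%) the groups were apart in opposite directions in the sexes. The genes named next are the 12 with the smallest p in each direction among those apart in this way with a mean of at least 1 log2 CPM, so that their separation was part of how they were chosen.

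Among the higher genes was Foxf1, which encodes a forkhead transcription factor of the lung mesenchyme and capillary endothelium (GRCm38, chromosome 8, 121084386 to 121088144, plus strand). Its level was 188, 274 and 228 CPM in the female oil mice and 333, 370.5 and 399.7 CPM in the female 9527+oil mice, and 195, 208 and 199 CPM in the male oil mice and 240.3, 249 and 276 CPM in the male 9527+oil mice. Adjusted p-values below are Benjamini-Hochberg values of edgeR's quasi-likelihood test. Each fold change is of 6 9527+oil over 6 oil mice unless a sex is named. SE is the standard error implied by that test. It is the size of the log2 fold change divided by the square root of the F statistic. The lowest 9527+oil mouse of each sex was above the highest oil mouse (log2 fold change 0.51 ± 0.12 SE, adjusted p = 0.481 by edgeR). Ces1g, a carboxylesterase that hydrolyses esters and drugs, was at 1.92, 2.56 and 2.29 CPM in the female oil mice and 16.5, 3.93 and 4.07 CPM in the female 9527+oil mice, and 3.65, 5.09 and 3.19 CPM in the male oil mice and 35.8, 6.36 and 6.62 CPM in the male 9527+oil mice. Mouse 16 of each sex was the highest by far, and the other 9527+oil mice were also above the oil mice of their sex (log2 fold change 1.94 ± 0.49 SE, adjusted p = 0.481 by edgeR). Cntfr, the receptor subunit for ciliary neurotrophic factor, was at 4.92, 9.83 and 4.90 CPM in the female oil mice and 12.2, 16.2 and 11.1 CPM in the female 9527+oil mice, and 6.23, 4.27 and 6.81 CPM in the male oil mice and 9.36, 9.25 and 8.79 CPM in the male 9527+oil mice (log2 fold change 0.83 ± 0.21 SE, adjusted p = 0.481 by edgeR). Female oil mouse 5 was close to the lowest female 9527+oil mouse. Per3, a repressor of the circadian clock, was at 60.9, 85.9 and 75.03 CPM in the female oil mice and 104, 95.6 and 94.6 CPM in the female 9527+oil mice, and 34.4, 45.1 and 53.1 CPM in the male oil mice and 55.9, 60.1 and 87.8 CPM in the male 9527+oil mice (log2 fold change 0.51 ± 0.15 SE, adjusted p = 0.481 by edgeR), and both sexes showed the same order of groups at different levels, the female mice being higher. Ier5, an immediate early gene, had a log2 fold change of 0.42 ± 0.13 (SE), and Celsr2, a cadherin of planar cell polarity, one of 0.52 ± 0.14. Eef2k, the kinase of elongation factor 2, and Angptl2, a secreted angiopoietin-like protein, had log2 fold changes of 0.50 ± 0.14 and 0.39 ± 0.11. The others were Extl1, Clcn2, Ahnak2 and Stambp, at 0.77, 0.58, 0.48 and 0.48.

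The lower genes held several that are known from macrophages and from dividing cells. Apod, which encodes the lipid carrier apolipoprotein D (GRCm38, chromosome 16, 31296192 to 31314808, minus strand), was at 10.3, 12.5 and 21.9 CPM in the female oil mice and 6.92, 5.87 and 9.39 CPM in the female 9527+oil mice, and 14.8, 11.6 and 14.3 CPM in the male oil mice and 8.38, 6.81 and 6.25 CPM in the male 9527+oil mice. It had the smallest p of all genes tested, with all 6 9527+oil mice below all 6 oil mice of either sex (log2 fold change -0.96 ± 0.19 SE, adjusted p = 0.481 by edgeR). Tyms, thymidylate synthase of nucleotide supply for DNA replication, was at 10.4, 8.02 and 12.7 CPM in the female oil mice and 5.55, 5.45 and 6.50 CPM in the female 9527+oil mice, and 13.4, 13.1 and 12.01 CPM in the male oil mice and 9.23, 10.2 and 8.68 CPM in the male 9527+oil mice (log2 fold change -0.64 ± 0.14 SE, adjusted p = 0.481 by edgeR). The groups were apart in each sex, while male 9527+oil mice lay within the range of the female oil mice. Ear2, an eosinophil-associated ribonuclease also made by alveolar macrophages, was at 81.4, 70.6 and 109 CPM in the female oil mice and 55.6, 45.5 and 46.2 CPM in the female 9527+oil mice, and 69.3, 95.6 and 65.3 CPM in the male oil mice and 49.04, 60.5 and 58.5 CPM in the male 9527+oil mice (log2 fold change -0.64 ± 0.15 SE, adjusted p = 0.481 by edgeR). The female oil mice reached higher than the male ones, and mouse 6 was the highest of them. Krt79, a keratin listed here among the alveolar macrophage markers, was at 15.2, 15.5 and 18.5 CPM in the female oil mice and 9.41, 10.6 and 12.4 CPM in the female 9527+oil mice, and 21.96, 27.9 and 37.7 CPM in the male oil mice and 14.6, 16.2 and 19.99 CPM in the male 9527+oil mice (log2 fold change -0.69 ± 0.15 SE, adjusted p = 0.481 by edgeR), and it was higher in male than in female oil mice. Bub1, a kinase of the spindle checkpoint, had a log2 fold change of -0.71 ± 0.18 (SE) and Casc5, a kinetochore protein, one of -0.90 ± 0.21. Ms4a7 and Clec12a, both expressed in myeloid cells, were at -0.73 ± 0.17 and -0.69 ± 0.18. The remaining genes were Bcl2a1b, Phf11b, Slamf9 and Lrp2, at -0.89, -0.80, -0.65 and -0.33.

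**Figure D1:**
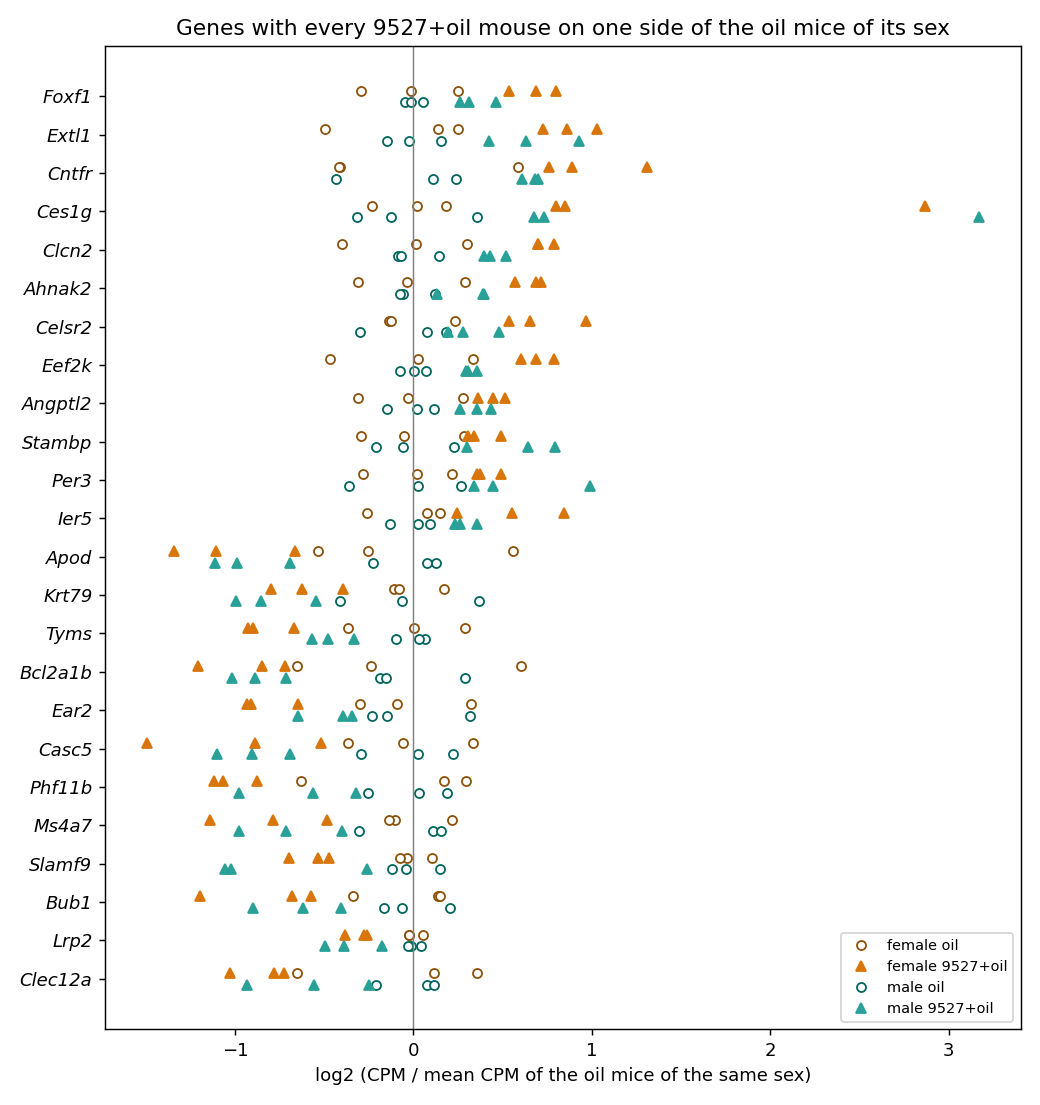
Level of the 24 named genes in each of the 12 mice as log2 of its CPM over the mean of the oil mice of the same sex, with open circles for oil and filled triangles for 9527+oil. The triangles lie right of the circles of their sex in the upper 12 genes and left of them in the lower 12, which is how the genes were chosen. Ces1g has 2 triangles far to the right, both of a mouse numbered 16.

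Gene groups were described from 64 lists written for this tissue and these treatments. The 20 lists described below were picked after their values were known. In the other 44 lists, 29 of 897 tested members were higher and 65 lower at an unadjusted p under 0.05. A gene was counted in each list that held it. The medians of all 64 ran from -0.77 to 0.27 on the log2 scale, and 31 were above 0 and 33 below. The median of all genes tested was -0.02. Counts of members at an unadjusted p under 0.05 are over both sexes unless a sex is named and are given beside the 5.43% of all genes that were lower and the 3.64% that were higher at that p, with the range when each of the 12 mice was left out in turn, naming the mouse where 1 or 2 gave that end of the range. With 1 mouse left out, the direction of most members changed, a tie included, in 3 of the 20 lists over both sexes. These were the interferon-induced, neutrophil and nuclear oxidative phosphorylation lists. In female mice it changed in 10 lists. These were alternative macrophage activation, CC chemokines, acute phase, T cell, neutrophil, DNA replication, aryl hydrocarbon receptor, xenobiotic, club cell and nuclear oxidative phosphorylation. In male mice it changed in 8 lists. These were alternative macrophage activation, acute phase, interferon-induced, neutrophil, cholesterol, Notch, nuclear oxidative phosphorylation and mitochondrially encoded. The shares of all genes are those with all 12 mice. With 1 mouse left out, the numbers of all genes at an unadjusted p under 0.05 over both sexes moved too. They ran from 284 to 1283 higher and from 304 to 1290 lower. The sexes are given side by side below, and their difference was not tested for any list.

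Markers of alveolar macrophages were lower in 9527+oil mice at a larger share than genes as a whole. Of 23 markers tested, 19 had a lower level, 11 of them at an unadjusted p under 0.05 (47.8%, against 5.43% of all genes), and no marker was higher at that p. The median log2 fold change was -0.43, and it was -0.31 without female oil mouse 6. With 1 mouse left out, the count lower at that p ran from 8 without female 9527+oil mouse 17 or male oil mouse 6 to 12 without female oil mouse 4 or female oil mouse 6, and without mouse 16 of each sex it was 5. The summed level was 1643, 1706 and 2900 CPM in female oil mice and 1259, 1264 and 1279 CPM in female 9527+oil mice, and 1714, 1824 and 1902 CPM in male oil mice and 1175, 1652 and 1618 CPM in male 9527+oil mice. These sums did not overlap in either sex. Chil3, a chitinase-like protein secreted by macrophages, was at 359, 414 and 373 CPM in the female oil mice and 263, 264 and 241 CPM in the female 9527+oil mice, and 504, 515 and 454 CPM in the male oil mice and 182, 462 and 443 CPM in the male 9527+oil mice (log2 fold change -0.51 ± 0.19 SE, adjusted p = 0.481 by edgeR). Every female 9527+oil mouse was below the female oil mice, while in male mice mouse 16 was far below and mouse 17 lay inside the oil range. Car4, a membrane carbonic anhydrase that is also found in capillary endothelium, was at 189, 181 and 242 CPM in the female oil mice and 118, 116 and 145 CPM in the female 9527+oil mice, and 157, 188 and 151 CPM in the male oil mice and 103, 166 and 163 CPM in the male 9527+oil mice (log2 fold change -0.44 ± 0.16 SE, adjusted p = 0.481 by edgeR). Marco and Siglecf, surface receptors that define the cell type, had log2 fold changes of -0.30 ± 0.28 and -0.24 ± 0.12 (SE), at unadjusted p of 0.298 and 0.0746. Fabp4 and Lpl, lipid genes of this list that fat cells also express, were both highest in female oil mouse 6.

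Genes of alternative macrophage activation were also mostly lower, and Chil3 and Mrc1 are on both lists. Of 17 tested, 14 were lower, 3 of them at an unadjusted p under 0.05 (17.6%, against 5.43% of all genes, and from 2 without male oil mouse 4 to 5 without female oil mouse 6), with a median of -0.28. In female mice 4 were higher and 11 lower, with a median of -0.18, or 8 and 8 without female oil mouse 5. In male mice 3 were higher and 13 lower, with a median of -0.43, or 9 and 7 without male oil mouse 4. Retnla, a resistin-like protein induced by type 2 cytokines, was at 112, 139.6 and 170.5 CPM in the female oil mice and 42.7, 36.01 and 70.7 CPM in the female 9527+oil mice, and 624, 101 and 67.6 CPM in the male oil mice and 17.6, 51.6 and 141 CPM in the male 9527+oil mice (log2 fold change -1.71 ± 0.57 SE, adjusted p = 0.481 by edgeR). Female groups were apart, while male mice spread widely and overlapped. Mrc1, the mannose receptor, was at 98.4, 79.9 and 174 CPM in the female oil mice and 59.1, 63.1 and 63.6 CPM in the female 9527+oil mice, and 81.1, 92.1 and 99.7 CPM in the male oil mice and 64.9, 86.7 and 81.5 CPM in the male 9527+oil mice (log2 fold change -0.57 ± 0.19 SE, adjusted p = 0.481 by edgeR), with female oil mouse 6 the highest.

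More chemokines of both classes had a lower than a higher level over both sexes. Of 12 CXC chemokines tested, 9 were lower and 5 had an unadjusted p under 0.05 (41.7%, against 5.43% of all genes, and from 3 to 6, the latter without female oil mouse 5), while 1 was higher at that p, and the median was -0.60. In female mice 4 were higher and 6 lower, with a median of -0.53, and in male mice 1 was higher and 11 lower, with a median of -0.22. Cxcl9, an interferon-gamma-induced attractant of T cells, was at 2.70, 9.08 and 8.65 CPM in the female oil mice and 1.54, 0.924 and 3.14 CPM in the female 9527+oil mice, and 5.25, 3.24 and 3.84 CPM in the male oil mice and 1.62, 0.61 and 1.37 CPM in the male 9527+oil mice. Its male groups did not overlap and its female groups overlapped by 1 mouse (log2 fold change -1.81 ± 0.38 SE, adjusted p = 0.481 by edgeR). Cxcl10, a related attractant, was at 2.44, 4.10 and 2.86 CPM in the female oil mice and 2.07, 1.34 and 1.72 CPM in the female 9527+oil mice, and 4.92, 1.54 and 2.65 CPM in the male oil mice and 1.82, 1.12 and 1.37 CPM in the male 9527+oil mice (log2 fold change -0.97 ± 0.28 SE, adjusted p = 0.481 by edgeR). Ppbp, a platelet chemokine, had a log2 fold change of -0.81 ± 0.32 (SE), and the neutrophil attractant Cxcl1, low in every mouse, one of -0.39 ± 0.31. Of 16 CC chemokines, 12 were lower, 4 of them at an unadjusted p under 0.05 (25%, from 2 without male oil mouse 4 to 5), with a median of -0.31. In female mice 7 were higher and 8 lower, with a median of -0.04, and in male mice 3 were higher and 13 lower, with a median of -0.48. Ccl9 was at 18.1, 20.4 and 33.5 CPM in the female oil mice and 14.1, 18.2 and 12.3 CPM in the female 9527+oil mice, and 43.1, 45.01 and 70.9 CPM in the male oil mice and 21.3, 34.1 and 44.7 CPM in the male 9527+oil mice (log2 fold change -0.68 ± 0.22 SE, adjusted p = 0.481 by edgeR), and the male mice were higher than the female mice in both groups. The monocyte attractants Ccl2, Ccl7 and Ccl8 had log2 fold changes of -0.46 ± 0.27, -0.95 ± 0.40 and -1.48 ± 0.52.

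Acute phase and interferon-induced genes were led by few members. Of 21 acute phase and host defense genes, 4 were lower (19%, against 5.43% of all genes) and 1 higher at an unadjusted p under 0.05, and with 1 mouse left out the lower ones ran from 3 without male oil mouse 6 to 5 and the higher ones from 0 to 3. In female mice 9 were higher and 11 lower, with a median of -0.18, and in male mice 11 were higher and 9 lower, with a median of 0.02. Saa3, a serum amyloid A protein of the lung, was at 4.49, 8.60 and 3.56 CPM in the female oil mice and 1.30, 2.31 and 4.36 CPM in the female 9527+oil mice, and 35.6, 15.5 and 38.1 CPM in the male oil mice and 1.70, 8.49 and 9.73 CPM in the male 9527+oil mice (log2 fold change -1.64 ± 0.47 SE, adjusted p = 0.481 by edgeR). The male groups were apart and the female groups overlapped. Lcn2, lipocalin 2 of epithelium and neutrophils, was at 121, 171 and 147 CPM in the female oil mice and 112, 111 and 141 CPM in the female 9527+oil mice, and 442, 294 and 502 CPM in the male oil mice and 156, 296 and 238 CPM in the male 9527+oil mice (log2 fold change -0.56 ± 0.20 SE, adjusted p = 0.481 by edgeR). In male mice the largest 9527+oil value was level with the lowest oil value. Hp, haptoglobin, had a log2 fold change of 0.20 ± 0.19. Of 41 interferon-induced genes, 6 were lower (14.6%, against 5.43% of all genes, and from 3 to 7, the latter without female oil mouse 6) and 0 higher at an unadjusted p under 0.05, Cxcl9 and Cxcl10 among them. Ifit3 had a log2 fold change of -0.36 ± 0.13, while Isg15 was at 0.00 ± 0.28. The median of the list was -0.06. In female mice 17 were higher and 24 lower, with a median of -0.25, and in male mice 22 were higher and 19 lower, with a median of 0.01.

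**Figure D2:**
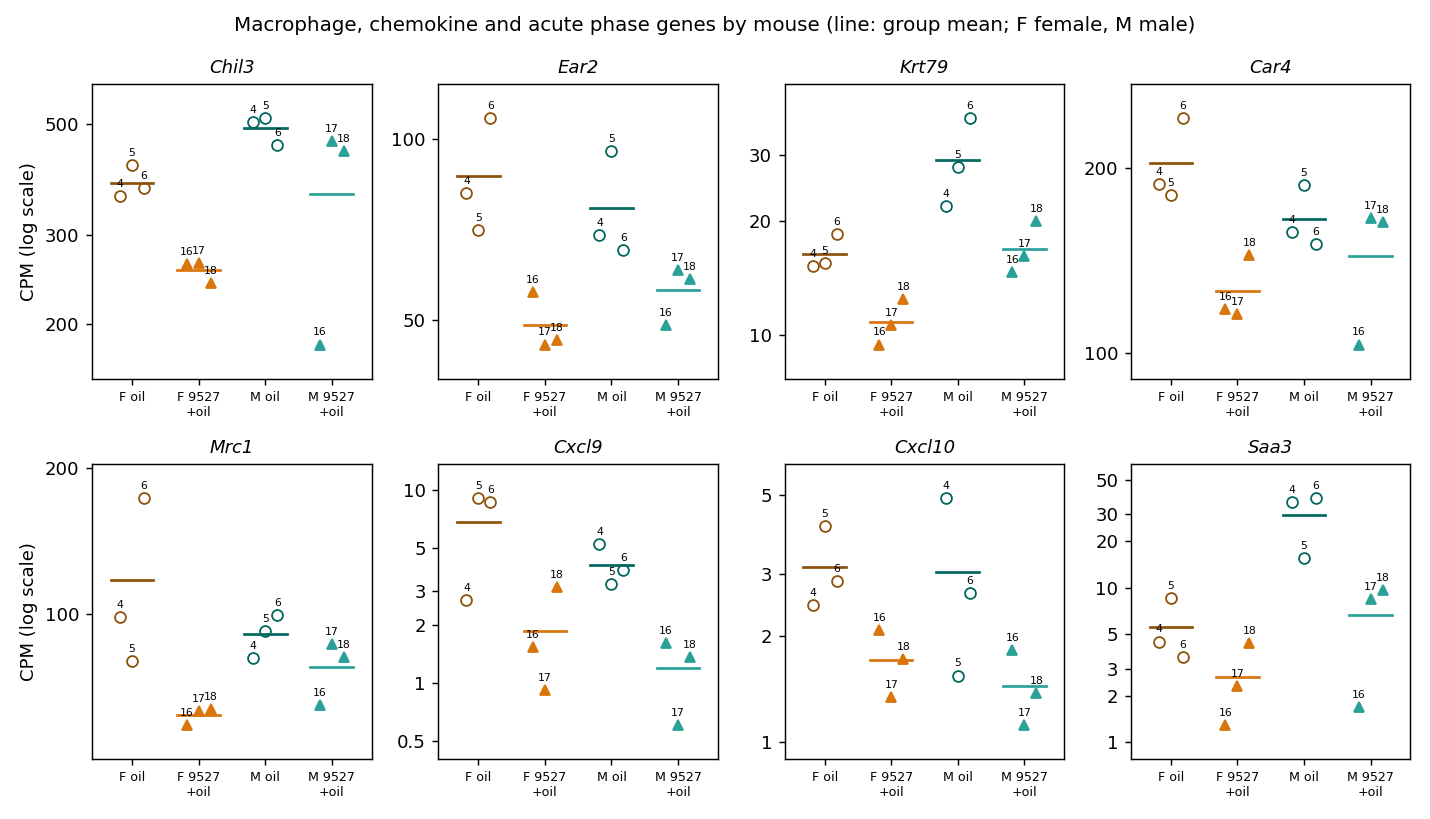
CPM on a log axis of 8 macrophage, chemokine and acute phase genes in each mouse, numbered as in the labels, with a line at the group mean. Ear2 and Krt79 are apart in both sexes, Chil3 and Mrc1 in female mice, and Cxcl9 and Saa3 in male mice.

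Markers of T cells and plasma cells were lower in part of their members. Of 22 T cell markers tested, 6 were lower (27.3%, against 5.43% of all genes, and from 4 without female 9527+oil mouse 16 or female 9527+oil mouse 18 to 8 without female oil mouse 5) and 0 higher at an unadjusted p under 0.05. In female mice 11 were higher and 11 lower, with a median of -0.01, and in male mice 2 were higher and 20 lower, with a median of -0.28. Cd2 was at 32.6, 30.8 and 33.8 CPM in the female oil mice and 27.6, 23.2 and 27.5 CPM in the female 9527+oil mice, and 33.7, 31.5 and 30.8 CPM in the male oil mice and 26.2, 27.4 and 24.9 CPM in the male 9527+oil mice, with both sexes apart (log2 fold change -0.30 ± 0.09 SE, adjusted p = 0.481 by edgeR). Ctla4, an inhibitory receptor of activated and regulatory T cells, was also apart in both sexes at 0.32 to 3.44 CPM (log2 fold change -1.36 ± 0.36 SE, adjusted p = 0.481 by edgeR). The T cell receptor subunits Cd3e, Cd3d and Cd3g had log2 fold changes of -0.24 ± 0.28, 0.04 ± 0.19 and -0.26 ± 0.18 (SE). Of 14 plasma cell markers, 5 were lower at an unadjusted p under 0.05 (35.7%), and with 1 mouse left out this ran from 2 to 5, the latter without female oil mouse 5 or male 9527+oil mouse 16. It was 2 without female oil mouse 6. In female mice 4 were higher and 10 lower, with a median of -0.31, and in male mice 3 were higher and 10 lower, with a median of -0.16. Igkc, the kappa light chain constant region, was at 208, 119.8 and 644 CPM in the female oil mice and 119, 76.1 and 87.8 CPM in the female 9527+oil mice, and 234, 278 and 169 CPM in the male oil mice and 203, 151 and 146 CPM in the male 9527+oil mice (log2 fold change -1.11 ± 0.39 SE, adjusted p = 0.481 by edgeR), and female oil mouse 6 was the highest. Neutrophil markers were higher in 11 of 16, 0 of them at an unadjusted p under 0.05, and 1 was lower at that p, which was Lcn2. Without male 9527+oil mouse 16, 2 were higher at that p, and without male 9527+oil mouse 18, 5 of the 16 had a higher and 11 a lower level. In female mice 6 were higher and 9 lower, with a median of -0.13, and in male mice 12 were higher and 4 lower, with a median of 0.39. S100a8 ran from 22.4 to 234 CPM within the 3 male 9527+oil mice.

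Genes of cell division were lower in most cases. Of 50 cell cycle and mitosis genes tested, 46 had a lower level, 13 of them at an unadjusted p under 0.05 (26%, against 5.43% of all genes), and the median was -0.28. Over both sexes without female oil mouse 6 it was -0.25, with 9 genes at that p. In female mice 17 were higher and 33 lower, with a median of -0.26, and in male mice 4 were higher and 46 lower, with a median of -0.35. The female median was -0.14 without oil mouse 6, and the genes lower at that p in female mice were 2 of 50 (against 6.13% of all genes) with this mouse and 0 without it. With 1 mouse left out, the genes lower at that p ran from 5 without male oil mouse 6 to 15 without male oil mouse 5, and without mouse 16 of each sex there were 4. Top2a, the topoisomerase of dividing cells, was at 22.3, 20.5 and 38.2 CPM in the female oil mice and 18.5, 11.8 and 21.6 CPM in the female 9527+oil mice, and 27.7, 20.2 and 35.8 CPM in the male oil mice and 20.98, 17.9 and 20.2 CPM in the male 9527+oil mice (log2 fold change -0.57 ± 0.20 SE, adjusted p = 0.481 by edgeR). Female oil mouse 6 and male oil mouse 6 were the highest. Mki67, the Ki-67 proliferation antigen, was at 45.1, 33.9 and 69.9 CPM in the female oil mice and 34.3, 33.9 and 40.96 CPM in the female 9527+oil mice, and 56.7, 46.5 and 78.2 CPM in the male oil mice and 53.95, 32.2 and 48.6 CPM in the male 9527+oil mice (log2 fold change -0.44 ± 0.19 SE, adjusted p = 0.481 by edgeR), and its groups overlapped in both sexes. Kif11, a spindle motor, and Birc5, survivin, had log2 fold changes of -0.66 ± 0.21 and -0.57 ± 0.19 (SE). Of 47 DNA replication genes, 35 were lower, 10 at an unadjusted p under 0.05 (21.3%, from 5 without female 9527+oil mouse 16 or female 9527+oil mouse 17 to 13 without female oil mouse 6), with a median of -0.22. In female mice 19 were higher and 28 lower, with a median of -0.07, and in male mice 3 were higher and 44 lower, with a median of -0.29. The DNA primase subunits Prim1 and Prim2 were apart in both sexes, with log2 fold changes of -0.42 ± 0.12 and -0.52 ± 0.14. Mcm2, a subunit of the replicative helicase, went the other way in female mice, at 14.9, 19.3 and 11.96 CPM in oil and 20.9, 20.7 and 22.8 CPM in 9527+oil, while the male mice were at 29.3, 23.2 and 25.8 and 19.9, 17.1 and 21.3 CPM.

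Part of the genes of the circadian clock were higher at an unadjusted p under 0.05. The clock is a loop in which Arntl and Clock drive the Per and Cry repressors and the output factors Dbp, Tef and Nr1d1, so that tissue levels follow the hour of sampling, and the hour of collection of each mouse was not analysed here. Of 20 clock genes tested, 14 had a higher level, and 6 of these had an unadjusted p under 0.05 (30%, against 3.64% of all genes), and 1 was lower at that p. With 1 mouse left out, the genes higher at that p ran from 3 to 8, the latter without female oil mouse 5 or male 9527+oil mouse 16. The median was 0.27, and 0.26 without female oil mouse 6. In female mice 13 were higher and 7 lower, with a median of 0.37, and in male mice 13 were higher and 7 lower, with a median of 0.33. Dbp, an output factor of the clock, was at 26.9, 98.7 and 12.7 CPM in the female oil mice and 147, 111 and 109.7 CPM in the female 9527+oil mice, and 14.6, 23.5 and 36.7 CPM in the male oil mice and 58.2, 44.6 and 73.6 CPM in the male 9527+oil mice. The groups were apart in each sex, but female oil mouse 5, at 98.7 CPM, was close to the female 9527+oil mice (log2 fold change 1.32 ± 0.41 SE, adjusted p = 0.481 by edgeR). Nr1d1, the nuclear receptor Rev-erb alpha, was at 369, 386 and 463 CPM in the female oil mice and 611, 699.5 and 524 CPM in the female 9527+oil mice, and 149.5, 274 and 283 CPM in the male oil mice and 428, 277 and 381 CPM in the male 9527+oil mice (log2 fold change 0.60 ± 0.17 SE, adjusted p = 0.481 by edgeR), with the female groups apart and the male groups overlapping by 1 mouse. Per1 was at 71.1, 278 and 128 CPM in the female oil mice and 349.9, 406 and 375 CPM in the female 9527+oil mice, and 117, 115 and 266 CPM in the male oil mice and 105, 251 and 288 CPM in the male 9527+oil mice (log2 fold change 0.81 ± 0.37 SE, adjusted p = 0.481 by edgeR). The female groups were apart and the male groups overlapped, and the female oil mice spread widely. Clock itself was lower, at 25.8, 24.4 and 48.2 CPM in the female oil mice and 16.9, 19.5 and 21.9 CPM in the female 9527+oil mice, and 43.4, 49.8 and 46.2 CPM in the male oil mice and 39.1, 38.03 and 42.6 CPM in the male 9527+oil mice (log2 fold change -0.49 ± 0.18 SE, adjusted p = 0.481 by edgeR), and Arntl ran from 2.42 to 20.4 CPM with a log2 fold change of -0.26 ± 0.43.

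The clock's activators bind the E-box, CACGTG, so the promoters of these genes were searched for it. In the 250 bases before the RefSeq start, 5 of 17 clock genes with a promoter entry held it (29.4%), against 7.93% of 11028 promoters of tested genes. The D-box, TTATGTAA, was in 1 of the 17 (5.88%) and in 0.571% of all. Both strands were searched, and neither motif contains the other. The promoters of Per1 and Tef are shown, each at the start that the RefSeq table lists first of 2, as the 2 higher genes at an unadjusted p under 0.05 that hold an E-box there, with the motif in capitals, 166 bases before the start in Per1 and 127 in Tef (GRCm38.p6, chr11:69098699-69098948 and chr15:81802423-81802672, both on the plus strand).
Per1: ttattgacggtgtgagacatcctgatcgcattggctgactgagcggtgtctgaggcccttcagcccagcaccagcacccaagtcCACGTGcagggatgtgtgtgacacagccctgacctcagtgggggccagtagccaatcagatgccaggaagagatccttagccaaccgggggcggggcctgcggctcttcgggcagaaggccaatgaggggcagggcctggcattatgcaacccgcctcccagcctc
Tef: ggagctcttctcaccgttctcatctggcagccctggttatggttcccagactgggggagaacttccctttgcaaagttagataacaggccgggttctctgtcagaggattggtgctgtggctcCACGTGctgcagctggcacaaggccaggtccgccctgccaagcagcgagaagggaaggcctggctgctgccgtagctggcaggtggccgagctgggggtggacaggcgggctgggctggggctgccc
Dbp, Nr1d1, Per3 and Cry2 have no E-box within this window.

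**Figure D3:**
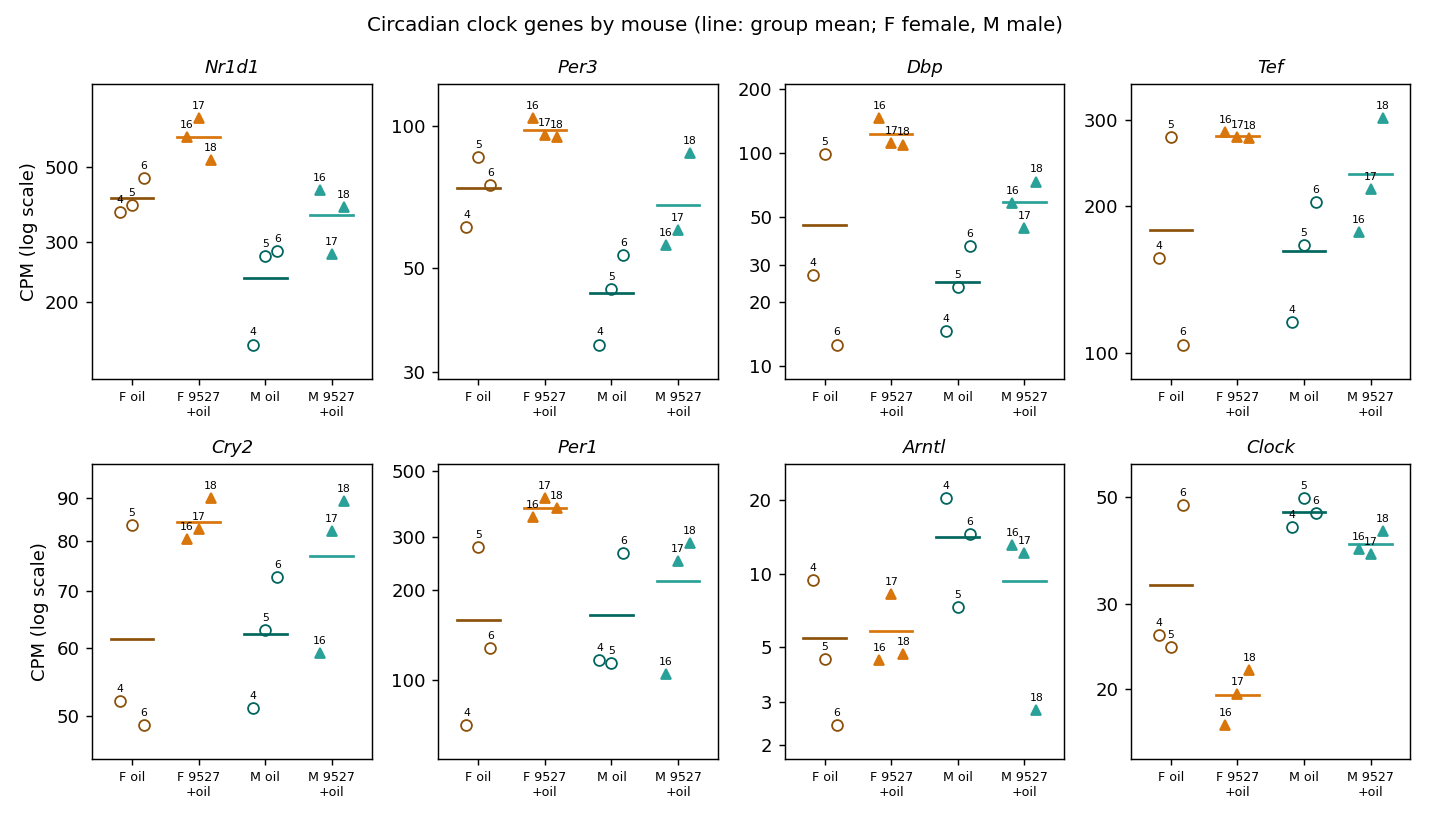
CPM on a log axis of 8 circadian clock genes in each mouse, numbered as in the labels, with a line at the group mean. Dbp and Per3 are higher in every 9527+oil mouse than in the oil mice of its sex, Clock is lower, and Arntl overlaps.

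Of the targets of the aryl hydrocarbon receptor, Cyp1a1, Nqo1, Ugt1a6a and Gsta2 were highest in mouse 16 of each sex. The summed level of the targets was highest in female oil mouse 6 (690.5 CPM) among female mice, followed by 9527+oil mouse 16 (627 CPM), and in 9527+oil mouse 16 (823 CPM) among male mice. Cyp1a1, the cytochrome P450 most closely tied to this receptor (GRCm38, chromosome 9, 57687928 to 57703824, plus strand), was at 3.96, 6.44 and 5.16 CPM in the female oil mice and 65.8, 5.36 and 9.43 CPM in the female 9527+oil mice, and 15.03, 14.1 and 21.04 CPM in the male oil mice and 204, 18.5 and 19.4 CPM in the male 9527+oil mice. Mouse 16 of each sex was far above every other mouse, while the other 9527+oil mice lay within the range of the oil mice of their sex, except female mouse 18, which was above it (log2 fold change 2.31 ± 0.70 SE, adjusted p = 0.481 by edgeR). Nqo1, a quinone reductase, was at 3.53, 4.50 and 1.40 CPM in the female oil mice and 10.8, 3.33 and 4.91 CPM in the female 9527+oil mice, and 4.12, 4.27 and 3.03 CPM in the male oil mice and 12.6, 4.98 and 3.80 CPM in the male 9527+oil mice (log2 fold change 0.95 ± 0.38 SE, adjusted p = 0.481 by edgeR), again highest in mouse 16 of each sex. Ugt1a6a, a glucuronosyltransferase, was at 49.7, 47.9 and 41.8 CPM in the female oil mice and 63.6, 44.4 and 49.4 CPM in the female 9527+oil mice, and 43.2, 47.8 and 41.2 CPM in the male oil mice and 90.3, 62.03 and 49.8 CPM in the male 9527+oil mice (log2 fold change 0.39 ± 0.16 SE, adjusted p = 0.481 by edgeR). Gsta2, a glutathione transferase, was at 2.61, 5.16 and 2.74 CPM in the female oil mice and 5.79, 3.00 and 3.23 CPM in the female 9527+oil mice, and 2.48, 2.11 and 2.58 CPM in the male oil mice and 10.4, 2.95 and 3.18 CPM in the male 9527+oil mice (log2 fold change 0.69 ± 0.37 SE, adjusted p = 0.481 by edgeR), and mouse 16 was the highest 9527+oil mouse of its sex for these genes too. Cyp1b1, a related P450, was highest in mouse 16 among the 9527+oil mice of each sex, and female oil mouse 6 was above female mouse 16. Tiparp, another target, was at 42.99, 53.9 and 117 CPM in the female oil mice and 39.4, 33 and 33.1 CPM in the female 9527+oil mice, and 28.9, 31.9 and 33.8 CPM in the male oil mice and 32.2, 30.9 and 37.3 CPM in the male 9527+oil mice, so that mouse 16 was within or below the oil range. Of 12 targets tested, 4 were higher at an unadjusted p under 0.05 (33.3%, against 3.64% of all genes), from 0 without male 9527+oil mouse 16 to 5 without female oil mouse 5 or female oil mouse 6 with 1 mouse left out, and 0 were without mouse 16 of each sex. In female mice 6 were higher and 5 lower, with a median of 0.04, and in male mice 9 were higher and 2 lower, with a median of 0.60. Without mouse 16 of each sex, the log2 fold change over both sexes was 0.35 for Cyp1a1 and 0.78 for Ces1g. Chil3 was also at its lowest in male mouse 16. Cyp1a1 was at 13.3 ± 11.6 CPM (SD, n = 6) in saline mice and 46.1 ± 98.2 CPM (SD, n = 6) in mice given Corexit 9527 alone, where the SD exceeded the mean.

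The receptor and its partner bind the core motif GCGTG. It occurs once in the 250 bases before the start of Cyp1a1, 54 bases upstream, and in 43.6% of all promoters of tested genes, so that its presence there is common. It was in 7 of the 9 targets with an entry (77.8%) and in 13 of the 17 clock promoters (76.5%). The promoter is shown with the motif in capitals (GRCm38.p6, chr9:57697363-57697612, plus strand).
Cyp1a1: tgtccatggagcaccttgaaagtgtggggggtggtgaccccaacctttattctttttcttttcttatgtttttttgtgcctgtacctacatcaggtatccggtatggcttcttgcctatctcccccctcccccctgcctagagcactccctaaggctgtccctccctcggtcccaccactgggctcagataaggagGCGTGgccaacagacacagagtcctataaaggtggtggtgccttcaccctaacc

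Enzymes of xenobiotic metabolism were higher in most cases in male mice. Of 35 tested in male mice, 32 were higher, 10 of them at an unadjusted p under 0.05 (against 1.31% of all genes). In female mice 17 were higher and 18 lower, or 11 and 24 without female oil mouse 6. At that p, 0 were higher and 5 lower in female mice (against 6.13% of all genes lower). The lower ones ran from 2 without female 9527+oil mouse 17 or female 9527+oil mouse 18 to 9 without female oil mouse 5. Without female oil mouse 5, 2880 of all 15067 genes were lower at that p in female mice. With 1 male mouse left out, 28 to 33 were higher. Over both sexes, 4 were higher at that p, from 0 without male 9527+oil mouse 16 to 9 without female oil mouse 5. The median of 35 xenobiotic genes was 0.23 in male and -0.02 in female mice, and their summed level was 10350, 10330 and 10600 CPM in male oil mice and 13050, 13100 and 12880 CPM in male 9527+oil mice, without overlap. In female mice it was 10780, 13230 and 11310 and 12660, 11410 and 12160 CPM, which overlapped. Of 13 club cell markers, 11 were higher in male and 7 in female mice, or 4 in female mice without oil mouse 6, and the lists share members. The summed level of club cell markers was 25920, 27490 and 31800 CPM in female oil mice and 21540, 17750 and 21210 CPM in female 9527+oil mice, lower without overlap. In male mice it was 22160, 23620 and 20600 CPM in oil and 23800, 27060 and 24170 CPM in 9527+oil mice, higher without overlap. Cyp2f2, the main naphthalene-oxidising P450 of club cells, was at 2836, 2994 and 2524 CPM in the female oil mice and 3130, 3021 and 2866 CPM in the female 9527+oil mice, and 2245, 2366 and 2210 CPM in the male oil mice and 3567, 3152 and 2714 CPM in the male 9527+oil mice (log2 fold change 0.29 ± 0.11 SE, adjusted p = 0.481 by edgeR). Scgb1a1, the club cell secretoglobin, was at 18760, 18460 and 24740 CPM in the female oil mice and 13260, 10320 and 13180 CPM in the female 9527+oil mice, and 15210, 16350 and 13590 CPM in the male oil mice and 14580, 17610 and 15240 CPM in the male 9527+oil mice (log2 fold change -0.34 ± 0.17 SE, adjusted p = 0.481 by edgeR). Female groups were apart and lower with 9527+oil, and the male groups overlapped. Scgb1a1 made up the larger part of the summed club cell markers in every mouse. The sum was thus lower in female 9527+oil mice although 7 of the 13 markers were higher. Aldh3a1, an aldehyde dehydrogenase, had a log2 fold change of 0.50 ± 0.21.

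**Figure D4:**
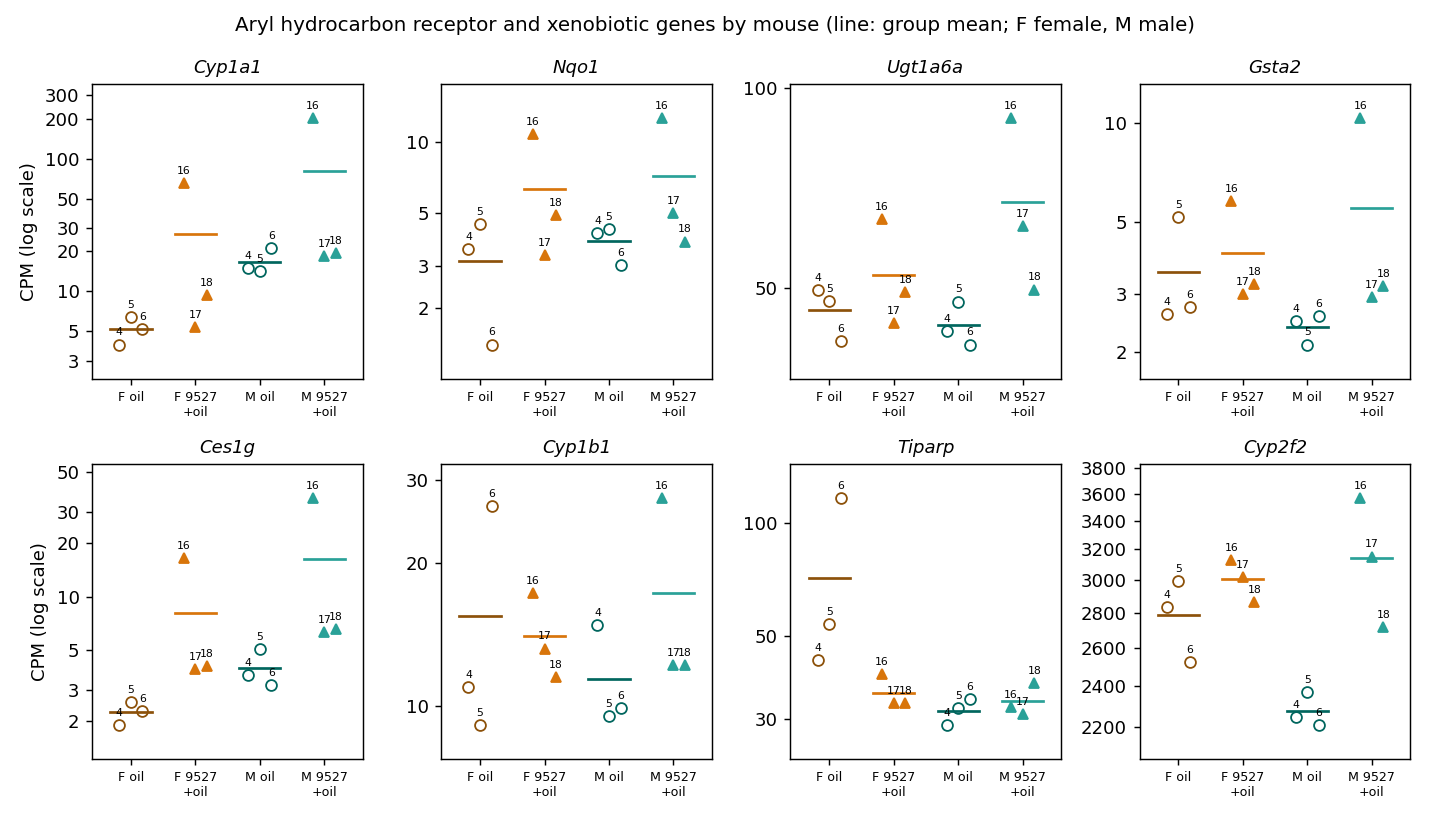
CPM on a log axis of 8 aryl hydrocarbon receptor and xenobiotic genes in each mouse, numbered as in the labels, with a line at the group mean. Mouse 16 is the highest 9527+oil mouse of its sex for 7 of them, Tiparp in male mice being the exception.

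Medians of the sterol, Notch and mitochondrial lists were farther from 0 in female than in male mice. The fold changes of all genes were also wider in female mice. With the 5% of genes at either end left out, they ran from -0.93 to 0.94 in female and from -0.42 to 0.41 in male mice. More members of the sterol and nuclear oxidative phosphorylation lists were lower in male than in female mice. Of 24 cholesterol synthesis genes, 7 were lower (29.2%, against 5.43% of all genes) and 0 higher at an unadjusted p under 0.05. With 1 mouse left out the count ran from 1 without female 9527+oil mouse 18 to 8 without male oil mouse 6, and it was 1 without mouse 16 of each sex. In female mice 9 were higher and 15 lower, with a median of -0.19. In male mice 5 were higher and 19 lower, with a median of -0.08, or 15 higher and 9 lower without male oil mouse 4. Hmgcs1, which makes the precursor of mevalonate, was at 113, 85.9 and 166 CPM in the female oil mice and 66.4, 65.6 and 55.4 CPM in the female 9527+oil mice, and 72.1, 71.5 and 57.5 CPM in the male oil mice and 58.9, 75.4 and 56.4 CPM in the male 9527+oil mice (log2 fold change -0.52 ± 0.20 SE, adjusted p = 0.481 by edgeR). Female groups were apart and male groups overlapped. Of 40 Notch genes, 33 had a higher level, and 7 of these (17.5%, against 3.64% of all genes) and 1 lower gene had an unadjusted p under 0.05. With 1 mouse left out the higher ones ran from 1 without female oil mouse 4 to 11 without male oil mouse 6 or male 9527+oil mouse 17. In female mice 34 were higher and 6 lower, with a median of 0.51, and in male mice 24 were higher and 16 lower, with a median of 0.03. In female mice without oil mouse 6 the median was 0.29. Notch1, a receptor of the pathway, was at 186, 273 and 107 CPM in the female oil mice and 334, 475 and 368 CPM in the female 9527+oil mice, and 335, 284 and 349 CPM in the male oil mice and 342, 331 and 359.9 CPM in the male 9527+oil mice (log2 fold change 0.57 ± 0.24 SE, adjusted p = 0.481 by edgeR), and the female oil mice were lowest in mouse 6. Its target genes Hes1 and Hey1 had log2 fold changes of 0.17 ± 0.10 and 0.26 ± 0.16 (SE). Of 73 nuclear genes of oxidative phosphorylation, 15 were lower (20.5%, against 5.43% of all genes) and 0 higher at an unadjusted p under 0.05, with a median of -0.11. With 1 mouse left out the count ran from 2 without female 9527+oil mouse 17 to 19 without male 9527+oil mouse 17, and it was 11 without female oil mouse 6 and 1 without mouse 16 of each sex. By direction alone, 51 of the 73 had a lower level, and 35 did without female oil mouse 5. In female mice 27 were higher and 45 lower, with a median of -0.23, or 40 and 33 without female oil mouse 5. In male mice 18 were higher and 55 lower, with a median of -0.08, or 39 and 34 without male 9527+oil mouse 16. Within a sex, 14 were lower at that p in female mice (against 6.13% of all genes) and 0 in male mice (against 1.86%). With 1 female mouse left out the count in female mice ran from 2 without female 9527+oil mouse 17 to 18 without female oil mouse 4. Without female oil mouse 5, 17 were higher at that p, and so were 2662 of all 15067 genes. Of all 15089 genes, 131 were lower at that p without female 9527+oil mouse 17. Ndufv3, a subunit of complex I, was apart in both sexes at -0.34 ± 0.10.

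The medians of mitochondrially encoded and fat cell genes over both sexes moved with female oil mouse 6. They were -0.55 and -0.77 with this mouse and -0.06 and -0.03 without it. Within a sex, the fat markers had a median of -1.96 in female mice, -0.42 in female mice without oil mouse 6, where 9 of 12 were lower and 3 of them at an unadjusted p under 0.05 (804 of all 15052 genes were lower at that p), and 0.34 in male mice, where 10 of 11 were higher. Adipoq, the fat cell hormone adiponectin, was at 4.92, 7.63 and 72.2 CPM in the female oil mice and 3.83, 3.47 and 4.82 CPM in the female 9527+oil mice, and 0.937, 2.37 and 1.26 CPM in the male oil mice and 3.24, 3.15 and 3.29 CPM in the male 9527+oil mice. The part of fat, mitochondrial share and GC content of this library in the other lists was not tested beyond leaving the mouse out.

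**Figure D5:**
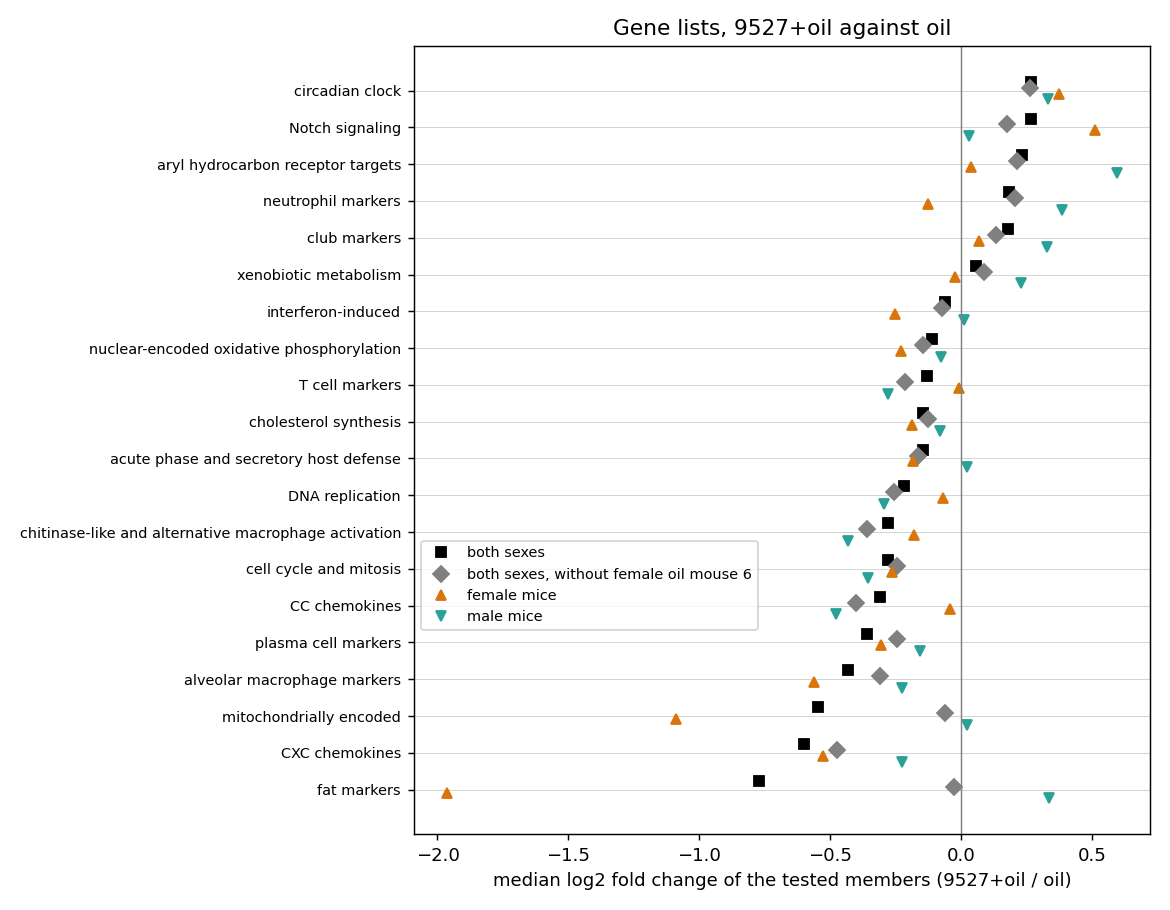
Median log2 fold change of the tested members of 20 gene lists over both sexes, over both sexes without female oil mouse 6, and in each sex. The medians for fat and mitochondrially encoded genes over both sexes move to near 0 without this mouse. Those for most of the other lists, alveolar macrophage, cell cycle and circadian clock genes among them, keep their sign in each sex.

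Within a sex, edgeR called 0 of 14847 genes in female mice (0%) and 0 of 14973 in male mice (0%), at lowest adjusted p-values of 0.404 and 1. DESeq2 called 30 and 14, and limma-voom with sample quality weights 6183 and 0. Before adjustment, 10.5% of genes had a p under 0.05 in female mice, 650 higher (4.38%) and 910 lower (6.13%), and 3.17% in male mice, 196 higher (1.31%) and 278 lower (1.86%). In female mice these counts were 1063 and 804 without oil mouse 6, 2662 and 2880 without oil mouse 5 and 130 and 131 without 9527+oil mouse 17. In male mice they were 370 and 517 without 9527+oil mouse 16 and 199 and 181 without oil mouse 4. Krcc1 had the smallest p in female mice, at 19.04, 13.7 and 136 CPM in oil and 0.421, 0.324 and 0.21 CPM in 9527+oil mice, while male mice were at 16.5, 17.5 and 18.8 and 10.7, 14.2 and 9.84 CPM (log2 fold change -7.41 ± 1.16 SE, adjusted p = 0.404 by edgeR). The groups were apart in both sexes. The female 9527+oil mice were not far above the level that 3 reads give, 0.0973 to 0.186 CPM. Suclg2, a subunit of succinyl-CoA ligase, was at 38.2, 27.9 and 52.1 CPM in female oil mice and 10.96, 12.5 and 14.6 CPM in female 9527+oil mice (log2 fold change -1.62 ± 0.28 SE, adjusted p = 0.404 by edgeR). The male groups overlapped. Foxa2, a forkhead factor of airway epithelium, was at 35.5, 40.6 and 36.2 and 64.9, 69.6 and 65.7 CPM in the female groups (log2 fold change 0.85 ± 0.16 SE, adjusted p = 0.404 by edgeR). The other genes of smallest p in female mice were Dopey2, Ier5l, Prrt2 and Fam65a, higher, and Rpl31-ps8, Ighg3 and Retnla, lower.

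In male mice, Cyp2a5, a P450 of the airway, was at 22.8, 30.7 and 24.3 CPM in oil and 47.1, 54.7 and 52.9 CPM in 9527+oil mice, without overlap (log2 fold change 0.99 ± 0.14 SE, adjusted p = 1 by edgeR). Its female groups overlapped at 33.1, 61.01 and 79.1 and 48.2, 31.99 and 41.2 CPM. Bpifa1, a secreted protein of upper airway epithelium, was at 80.6 ± 17.4 CPM in oil and 151 ± 29.1 CPM in 9527+oil mice (SD, n = 3), without overlap (log2 fold change 0.90 ± 0.19 SE, adjusted p = 1 by edgeR). Cfb, complement factor B, was at 149.8, 94.5 and 160.3 CPM in oil and 48.5, 70.2 and 67.4 CPM in 9527+oil mice (log2 fold change -1.12 ± 0.22 SE, adjusted p = 1 by edgeR). Female oil mice spread from 8.78 to 78.5 CPM for this gene. Tbxas1, thromboxane synthase, and F7, coagulation factor VII, had log2 fold changes of -0.78 ± 0.15 and -0.69 ± 0.14 (SE) in male mice. Lphn2, Pcx and Proser3, higher, and Gm5620, lower, complete the genes of smallest p.

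The interaction of sex and treatment called 0 of 15382 genes by edgeR (0%), 16 by DESeq2 and 3484 by limma-voom with sample quality weights. Of the 1243 genes at an unadjusted p under 0.05 (8.08%), 778 (5.06%) had a higher fold change in male than in female mice and 465 (3.02%) a lower one. Without female oil mouse 6 the counts were 496 and 665, without female oil mouse 5 they were 2707 and 2665, and without female 9527+oil mouse 17 they were 312 and 193. Mat1a and Gm5537 had no reads in any of the 3 female 9527+oil mice. Mat1a was at 0.653, 0.485 and 3.37 CPM in female oil mice and 3.18, 5.71 and 2.74 and 6.88, 7.12 and 3.76 CPM in the male groups, and Gm5537 at 9.19, 0.485 and 15.7 CPM in female oil mice. Tatdn2 was at 16.3, 19.7 and 12.8 CPM in the female oil mice and 32.8, 35.9 and 31.8 CPM in the female 9527+oil mice, and 31.4, 31.2 and 31.1 CPM in the male oil mice and 27.98, 28.2 and 28.02 CPM in the male 9527+oil mice, higher with 9527+oil in female and lower in male mice, and so were Gm5620 and Kcnab2, while Lum, a matrix proteoglycan, was lower in female and higher in male mice. Across 13112 genes, the log2 fold changes of female and male mice, which share no mouse, had a Pearson correlation of 0.178 and a Spearman correlation of 0.161 across genes, which are not independent replicates. The same sign was found in 54.6% of them, and in 56.9% without female oil mouse 6. Of 50 genes at an unadjusted p under 0.05 in both sexes, 40 had the same sign, 17 higher and 23 lower.

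The saline and Corexit 9527 mice give levels outside the comparison, described without a test. Both groups hold a female library with a high mitochondrial share, 45.1% in saline mouse 3 and 38.4% in Corexit 9527 mouse 11. Apod was at 7.26 ± 3.96 CPM in saline mice (SD, n = 6), 14.2 ± 4.12 CPM in oil mice, 7.79 ± 2.06 CPM in Corexit 9527 mice and 7.27 ± 1.35 CPM in 9527+oil mice. The 9527+oil and saline means of Apod differed by less than either SD. Its mean was highest in oil mice, whose range of 10.3 to 21.9 CPM overlapped that of saline mice, 0 to 11.4 CPM. Tyms was at 9.76 ± 0.989, 11.6 ± 2.06, 14.01 ± 1.98 and 7.61 ± 2.04 CPM in the same order, and Foxf1 at 244 ± 38.9, 215 ± 31.8, 187 ± 29.4 and 312 ± 66.2 CPM.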

How the data were processed

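Reads of left lung RNA were quantified by the authors with Salmon against the GRCm38 transcriptome and combined with tximport into expected counts, described by rows of transcripts in the methods but deposited with gene symbols and without normalization in a table for each sex (18120 and 18295 rows). The values were already whole, so rounding changed none. In the table of either sex, 4 rows that share a name were left out (0.0103% and 0.0128% of counts), and the 17716 genes of both tables were joined. Counts ran from 17703655 to 29685060 per mouse, and 3 reads correspond to 0.0973 to 0.186 CPM. Each of the 30 pairs of mice of the same sex differed by more than sampling noise (lowest chi-square per gene 12.5).

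Genes were tested with edgeR 4.0.16 (TMM, filterByExpr, quasi-likelihood F-test, Benjamini-Hochberg adjustment) in R 4.3.3, with sex as a covariate over both sexes and none within a sex. DESeq2 1.42.0, limma 3.58.1 (voom with sample quality weights) and other settings were alternatives, and all fits were tested on simulated data, where DESeq2 made more false calls than its threshold allows and exceeded the limit set for that test in its first run. Named genes were the 12 of smallest p in each direction with at least 1 log2 CPM and groups apart in both sexes, 5 in each direction for each sex and the interaction, and in each list the 3 of smallest p and the first 3 written. The genes of the lists are described in part. Gsta2, Tiparp, Car4, Fabp4, Lpl, Clock, Per1, Tef and Cry2 were chosen after their values were seen, as were the 20 described lists. The members, lists and tests were chosen with earlier results of these data known. Positions are from GENCODE M21 and promoters from RefSeq.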

Additional observations from a re-analysis of the deposited data

Results flagged for a closer look

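Within a treatment, 38 of 340 tested sets of 6 mice (11.2%) held a mouse that passed Dixon's critical value. The measure is its gap to its nearest neighbour as a share of the whole range. The nominal rate of 5% is for independent sets of normally distributed values. Most of these sets are CPM, and they share mice and lists, so that 11.2% cannot be read against 5%. Female and male mice are together in these sets, so that a difference between the sexes enters the range. Female oil mouse 6 gave 24 of the 38. Its levels were 72.2 CPM for Adipoq, 3.44 CPM for Ctla4, 26.4 CPM for Cyp1b1, 232 CPM for Cyp2e1, 644 CPM for Igkc, 136 CPM for Krcc1, 174 CPM for Mrc1, 0.573 CPM for Mzb1, 12.7 CPM for Orm1, 1.34 CPM for Orm2, 84.1 CPM for Pck1, 28.3 CPM for Ppbp, 43.02 CPM for Thrsp and 117 CPM for Tiparp. Only Mzb1 was below the other oil mice, and the rest were above them. Among mitochondrially encoded genes its levels were 38260 CPM for mt-Atp6, 62400 CPM for mt-Co1, 1289 CPM for mt-Co3, 30380 CPM for mt-Cytb, 27810 CPM for mt-Nd1 and 5867 CPM for mt-Nd6. Its summed levels were 2900 CPM for alveolar macrophage markers, 2478 CPM for CXC chemokines and 293700 CPM for mitochondrially encoded genes, and its mitochondrial share was 22.6%. Male oil mouse 4 stood apart at 12.2 CPM for Chil4 and 624 CPM for Retnla. Male oil mouse 6 stood apart at 475 CPM for Csf3r and a library of 29690000 counts, rounded to 4 digits. Female oil mouse 5 stood apart at 98.7 CPM for Dbp, 5.16 CPM for Gsta2 and a summed 13230 CPM for xenobiotic metabolism. Male 9527+oil mouse 18 stood apart at 8.39 CPM for Chil4 and 3.54 CPM for Pck1. Male 9527+oil mouse 16 stood apart at 204 CPM for Cyp1a1, 27.5 CPM for Cyp1b1 and 64.8 CPM for Marco. Female 9527+oil mouse 17 stood apart at 475 CPM for Notch1 and a summed 4019 CPM for Notch signaling.

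In 7 of the named genes the groups were apart in opposite directions in the sexes. No interaction passed edgeR's quasi-likelihood test with Benjamini-Hochberg adjustment. Adipoq had a log2 fold change of -2.78 in female and 1.09 in male mice, at an interaction adjusted p of 0.512. Cyp2e1 had a log2 fold change of -2.80 in female and 0.75 in male mice, at an interaction adjusted p of 0.512. Gm5620 had a log2 fold change of 0.63 in female and -0.88 in male mice, at an interaction adjusted p of 0.512. Kcnab2 had a log2 fold change of 0.68 in female and -0.39 in male mice, at an interaction adjusted p of 0.512. Lum had a log2 fold change of -0.64 in female and 0.59 in male mice, at an interaction adjusted p of 0.512. Mcm2 had a log2 fold change of 0.49 in female and -0.43 in male mice, at an interaction adjusted p of 0.512. Tatdn2 had a log2 fold change of 1.05 in female and -0.16 in male mice, at an interaction adjusted p of 0.512. The share of such genes over all genes tested was 0.58%, which is not a like measure for the 7. Gm5620, Kcnab2, Lum and Tatdn2 were among the genes named for the smallest interaction p. Their opposite directions were thus part of how they were chosen. The Adipoq and Cyp2e1 values in female mice move with female oil mouse 6, whose part in them was not tested here beyond leaving it out.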

How the results depend on the processing

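No paired analysis was possible because oil and 9527+oil mice carry different numbers in the labels. The count of 0 genes over both sexes was the same under every setting run except DESeq2, which called 8. Within female mice DESeq2 called 30, in male mice 14 and for the interaction 16, and limma-voom with sample quality weights called 6183 in female mice and 3484 for the interaction, with a weight of 5.09 for female oil mouse 4 and 0.0981 for female oil mouse 6. Leaving out 1 mouse gave 0 to 7 genes in female mice (7 without oil mouse 5, 1 without oil mouse 6), 0 to 1 in male mice (1 without oil mouse 6) and 0 to 13 for the interaction (13 without female oil mouse 5, 1 without female oil mouse 6). At an unadjusted p under 0.05 the counts over both sexes, 553 higher and 825 lower, became 1283 and 1290 without female oil mouse 5, 284 and 304 without female 9527+oil mouse 17, 211 and 405 with all 6 groups, and 460 and 969 with upper quartile scaling. The causes were not tested.

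Of the named genes' estimates under the alternatives, 3165 kept direction and side of the threshold, 57 passed it and 68 changed sign. Log2 fold changes that changed sign were, with upper quartile scaling, Isg15 -0.0195 and Atp5b -0.00139, without a filter on low counts, Retnlg 0.000942, with all 6 treatment groups in the fit, Retnlg 0.0732, with limma-voom and sample quality weights, Isg15 -0.0692, Cd3e 0.0331, Retnlg 0.289, Mcm2 -0.144, Cyp2e1 0.303, Atp5b -0.0613, mt-Cytb 0.0196, Pck1 0.141 and Adipoq 0.204, without the sex term, Retnlg 0.125 and Mcm2 -0.0301, without both mice numbered 16, Chia1 0.081, Retnlg 0.184 and Cyp1b1 -0.0972.

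When each mouse was left out in turn, the ranges of those that changed sign were -1.40 to 0.255 for Adipoq, -0.0552 to 0.655 for Ahrr, -0.0696 to 0.0981 for Atp5b, -0.0191 to 0.453 for Ccl4, -0.0444 to 0.143 for Cd3d, -0.385 to 0.0515 for Cd3e, -0.279 to 0.0348 for Chia1, -0.0205 to 0.543 for Cyp1b1, -0.0786 to 0.121 for Cyp2b10, -1.46 to 0.254 for Cyp2e1, -0.252 to 0.305 for Igha, -0.177 to 0.213 for Isg15, -0.103 to 0.129 for Mcm2, -0.333 to 0.301 for Mcm5, -0.241 to 0.12 for Mzb1, -0.173 to 0.184 for Retnlg, -0.052 to 0.435 for S100a8, -0.198 to 0.0496 for Scgb3a2, -0.126 to 0.0336 for Sqle, -0.406 to 0.09997 for mt-Cytb and -0.674 to 0.0212 for mt-Nd1. The median of the fat markers was 0.00126 with limma-voom, and without female oil mouse 6 the medians of the mitochondrially encoded and fat lists were -0.06 and -0.03, against -0.55 and -0.77. The mitochondrial list has no value where its genes were left out. The setting without both mice numbered 16 was chosen after seeing the data. At the depth of these libraries 3 reads correspond to 0.0973 to 0.186 CPM.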
